A study of Mus musculus with 18 samples.

Results

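The 5 genes described here are Sox2, Sox9, Aldh1a1, Aldh1a2 and S100b, which are widely used to mark the stem cells and the folliculostellate cells of the pituitary. They were chosen by name, with earlier results of these data known, and make up 5 of the 24054 genes listed for each tissue. RNA-Seq was available for pituitary, hypothalamus and thyroid of 3 WT mice (numbers 1, 2 and 43) and 3 K146Q mice (numbers 60, 62 and 83), so 18 libraries formed 6 groups of 3. All 6 mice were untreated males of the strain labelled C57BL/Ntac at 3 months of age. The K146Q mice carried the THRB K146Q knock-in, a base change in the endogenous Thrb gene that replaces the lysine to which SUMO is attached, in every tissue and in all THRB isoforms. No promoter or Cre limited the mutation to a cell type, and each library held RNA of a tissue with its cell types mixed. In such samples, fewer cells of a type and less RNA per cell cannot be told apart. The paper's methods name the pituitary and a figure caption the anterior pituitary, so whether the posterior lobe was included is not settled.

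The adult pituitary keeps a small population of stem cells, which line the remnant of the embryonic cleft and lie scattered among the hormone cells. SOX2 and SOX9 are transcription factors of the same HMG-box family, SOX2 found throughout this stem cell population and SOX9 in part of it. Folliculostellate cells are agranular, star-shaped support cells that overlap with this population and contain S100 proteins, among them S100B, a calcium-binding protein that is also abundant in astrocytes and Schwann cells. ALDH1A1 and ALDH1A2 are retinaldehyde dehydrogenases, the enzymes that make retinoic acid, which acts through the nuclear receptors RAR and RXR. RXR is also the partner with which thyroid hormone receptors bind DNA. None of these genes is specific to the pituitary, and SOX9 and S100B are made in many epithelial, cartilage, glial and fat cells.

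The genes lie on 5 chromosomes (GRCm38, GENCODE M21, all on the plus strand). Sox2 has a single exon at chr3:34650405-34652461 and lies within the longer noncoding gene Sox2ot on the same strand, whose exons it does not overlap. Sox9 lies at chr11:112782224-112787760, Aldh1a1 at chr19:20492715-20643465, Aldh1a2 at chr9:71215789-71296243 and S100b at chr10:76253853-76261159. S100b overlaps Dip2a on the opposite strand outside its exons, and no source used here states whether strand was kept. Promoter windows from RefSeq (GRCm38.p6) were matched for 4 of the 5 genes. The 250 bases before the start of Aldh1a2 and of S100b are shown because these genes had opposite orders across the tissues and moved in opposite directions in the thyroid. The capitals mark CCAAT, read on either strand.
Aldh1a2, chr9:71215539-71215788: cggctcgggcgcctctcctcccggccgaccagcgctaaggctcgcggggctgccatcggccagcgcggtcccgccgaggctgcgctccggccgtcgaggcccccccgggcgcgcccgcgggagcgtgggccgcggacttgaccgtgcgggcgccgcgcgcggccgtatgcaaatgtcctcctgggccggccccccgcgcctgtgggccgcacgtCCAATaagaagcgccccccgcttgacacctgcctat
S100b, chr10:76253586-76253835: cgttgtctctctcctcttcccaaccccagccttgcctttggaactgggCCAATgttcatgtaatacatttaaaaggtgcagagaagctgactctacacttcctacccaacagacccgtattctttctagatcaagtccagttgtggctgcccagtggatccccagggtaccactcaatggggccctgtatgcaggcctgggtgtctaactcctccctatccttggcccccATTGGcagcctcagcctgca
The Aldh1a2 window had a GC content of 77.6%, above 97.6% of 32851 promoter windows of the same length, and held CCAAT once, from base -36 to -32 before the start. The S100b window had a GC content of 53.6%, close to the median of 52.4%, and held CCAAT at -202 to -198 and, on the opposite strand, at -20 to -16. CCAAT occurred in 33.8% of all windows. The nuclear receptor half-site AGGTCA, present on either strand in 4607 of the 32851 windows, was in neither. It was found in the Sox2 window, chr3:34649745-34649994, at -244 to -239 on the opposite strand. That window also held the SOX core ACAAAG at -206 to -201, a motif of 16.5% of windows. Positions count back from the end of each window, which for Sox2 and S100b lies before the GENCODE start given above. A match of letters is not a site of binding.

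Values were normalized CPM (reads scaled to the effective size of the library), each a whole multiple of 1 read, and the libraries held 14902330 to 21230050 reads. At this depth 3 reads correspond to 0.133 to 0.190 CPM, and libraries of the same group differed beyond sampling noise. Genotypes were compared in each tissue by limma on log2(value + 0.5), a scale that understates changes of low genes, and a gene was called at an adjusted p under 0.05. The base change in Thrb cannot be read from these values. Tshb, which encodes the TSH β subunit, was at 456 ± 193 CPM (SD, n = 3) in the WT and 6983 ± 1301 CPM (SD, n = 3) in the K146Q pituitary. The hormone genes Gh, Prl, Tshb, Cga, Lhb, Fshb and Pomc together took 133600, 166500 and 257000 CPM for WT mice 1, 2 and 43, and 110000 to 119800 CPM in the K146Q mice. In the thyroid, 7 genes of follicular cells together took 299600 to 361300 CPM in WT and 90320 to 137700 CPM in K146Q mice. A gene's share of the reads moves with these transcripts, while the values used here were already scaled to the effective size of the library. As an alternative scaling, the members were also fitted on totals without the 10 highest genes.

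The pituitary was compared first, to ask whether its stem and folliculostellate genes differed between genotypes. None of the 5 passed the test, where 9.86% of the 15589 genes tested were called, 6.36% higher and 3.50% lower. Sox2, Sox9 and S100b each had 3 K146Q values below the 3 WT values, against 14.3% of all tested genes that did so. Sox2 was measured at 40.6, 41.4 and 39.8 CPM for WT mice 1, 2 and 43 and at 35.4, 39.1 and 33.5 CPM in K146Q mice 60, 62 and 83. The WT libraries were nearly equal and the K146Q libraries lay below them. The difference was -0.17 on the log2 scale (standard error 0.0849, adjusted p = 0.239), with a 95% interval from -0.36 to 0.017. Sox9 was at 20.2, 21.6 and 20.1 CPM in WT and 17.4, 16.3 and 17.2 CPM in K146Q mice. The groups did not overlap, and the difference of -0.28 (standard error 0.0923, 95% interval -0.48 to -0.069) had an adjusted p of 0.0947. On totals without the 10 highest genes it was -0.33 (adjusted p = 0.0538). The median over all genes tested moved down as well with that scaling, from -0.00875 to -0.0624.

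The retinoic acid enzymes overlapped between genotypes in the pituitary. Aldh1a2 was the member with the highest pituitary level, at 66.8, 75.4 and 63.2 CPM in WT and 55.2, 60.03 and 64.3 CPM in K146Q mice. K146Q mouse 83 lay above WT mouse 43, and the difference was -0.19 (standard error 0.0918, adjusted p = 0.227, 95% interval -0.40 to 0.013). Aldh1a1 was at 12.01, 14.4 and 17.2 CPM in WT and 13.1, 16.03 and 13.995 CPM in K146Q mice. Its K146Q values lay inside the WT range, with a difference of -0.0045 (standard error 0.143, adjusted p = 0.990). The 95% interval ran from -0.33 to 0.32, so a fall or a rise within these limits was not excluded. In an exact permutation test over mice (two-sided, smallest possible p 0.1), Sox2, Sox9 and S100b were at 0.1, Aldh1a2 at 0.2 and Aldh1a1 at 1.0.

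S100b was low in the pituitary and rested on 1 library. It was at 1.11, 1.66 and 3.93 CPM for WT mice 1, 2 and 43 and at 0.774, 0.715 and 1.05 CPM in K146Q mice, from 14 to 69 reads a library. WT mouse 43 stood above the others, and WT mouse 1 lay next to K146Q mouse 83. The difference was -0.89 (standard error 0.333, adjusted p = 0.129). Without WT mouse 43 it was -0.48 (adjusted p = 0.251), and by DESeq2 on the recovered reads of the 6 libraries it was -1.39 with an adjusted p of 0.0468. The same library was high in genes of Schwann cells, the myelinating glia of peripheral nerves. Prx, a peripheral myelin protein, was at 10.1 CPM in WT mouse 43 and at 1.10 to 2.40 CPM in the other 5 libraries, and Sox10, the SOX factor of glia, at 1.82 CPM there and 0.153 to 0.515 CPM elsewhere. The 3 Schwann genes Pmp22, Prx and Sox10 summed to 39.2 CPM in WT mouse 43, to 14.4 and 15.6 CPM in WT mice 1 and 2 and to 12.3 to 14.5 CPM in the K146Q mice. Their part in the S100b values was not tested.

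**Figure D1:**
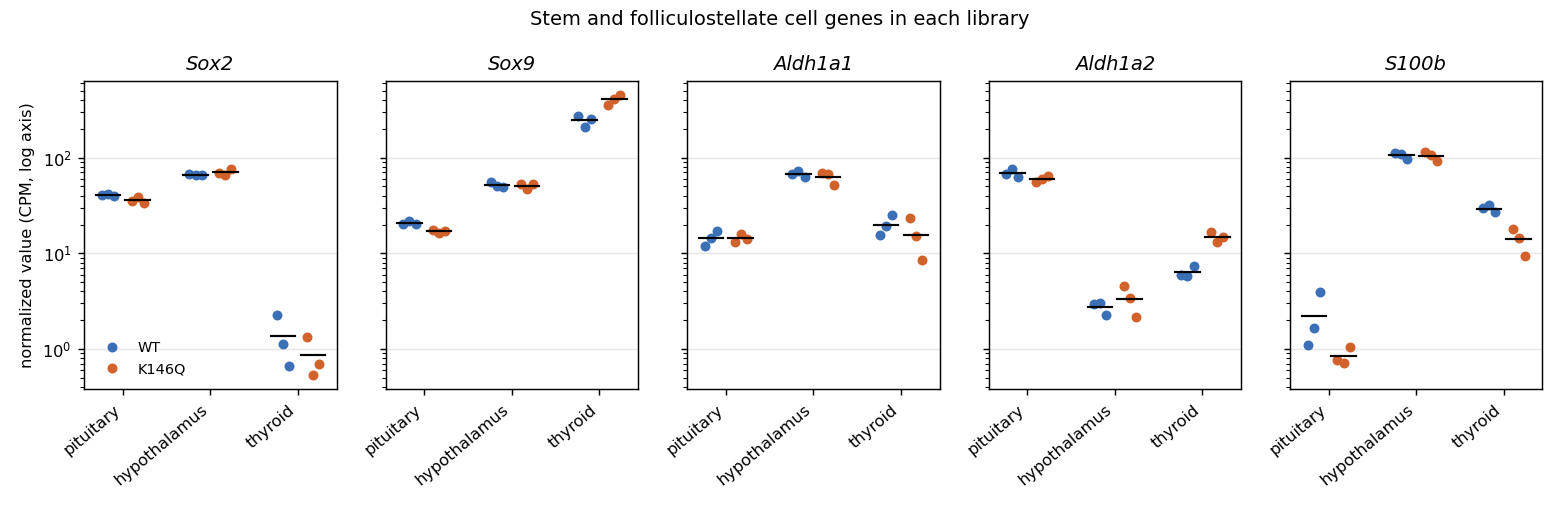
Normalized value in CPM (log axis) of the 5 genes in each of 18 libraries, by tissue; points are mice, colours are genotypes and bars are means of 3. S100b in the pituitary spreads from 0.715 to 3.93 CPM, while the thyroid values of Sox9, Aldh1a2 and S100b separate the genotypes.

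Further genes of pituitary stem and folliculostellate cells were read in the pituitary as well. Of 22 such genes, 20 were measured well enough to test, and 2 were called higher and 1 lower. The shares called over all genes tested were 6.36% higher and 3.50% lower. The median difference of the 20 genes was -0.041, against -0.0087 over all genes. Anxa1, the annexin of folliculostellate cells, was at 4.36, 4.06 and 5.87 CPM in WT and 8.20, 7.35 and 8.33 CPM in K146Q mice, a rise of 0.70 (standard error 0.157, adjusted p = 0.0226). Efnb2, a membrane-bound ephrin ligand, rose by 0.29 (standard error 0.0770, adjusted p = 0.0412). Rbpms, an RNA-binding protein, fell by 0.36 (standard error 0.0767, adjusted p = 0.0182). None of these 3 calls held in each of the 6 fits that left out 1 mouse, and 0 to 1 genes were then called higher. Of 15 genes of Notch, Hippo and Wnt signalling, 1 was called, Notch3, which encodes a Notch receptor and fell by 0.32 (standard error 0.0808, adjusted p = 0.0365); this call was lost in 5 of the 6 fits without 1 mouse.

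Retinoid genes other than the 2 members gave 3 calls in the pituitary, all higher, among 15 tested of 19. Over all genes tested there, 9.86% were called, 6.36% higher and 3.50% lower. Rbp4, the plasma carrier of retinol, was at 17.4, 16.02 and 27.6 CPM in WT and 72.0, 55.9 and 48.7 CPM in K146Q mice. The groups did not overlap, and the rise of 1.53 (standard error 0.202, adjusted p = 0.00152) was called in each of the 6 fits without 1 mouse. Rxrg, the RXR form enriched in thyrotrophs, was at 66.9, 68.3 and 66.1 CPM in WT and 86.0, 96.2 and 92.8 CPM in K146Q mice, a rise of 0.45 (standard error 0.0720, adjusted p = 0.00466) that was also called in each of those 6 fits. Cyp26b1, which breaks down retinoic acid, was at 4.09, 2.173 and 13.3 CPM in WT and 28.1, 12.4 and 32.3 CPM in K146Q mice. WT mouse 43 lay above K146Q mouse 62, and the rise of 2.05 (standard error 0.536, adjusted p = 0.0410) was called in 2 of the 6 fits without 1 mouse and not by edgeR (adjusted p = 0.0552) or DESeq2 (adjusted p = 0.129). Without WT mouse 43, 5 retinoid genes were called, with Rarb (0.55, adjusted p = 0.0291) higher and Rara (-0.62, adjusted p = 0.0195) lower beside these 3.

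Among 12 tested SOX genes other than the 2 members, 1 was called in the pituitary, where 9.86% of all genes tested were. This was Sox12, a factor of the SOXC group. It was at 23.5, 23.3 and 19.4 CPM in WT and 17.2, 14.9 and 13.1 CPM in K146Q mice, a fall of 0.54 (standard error 0.128, adjusted p = 0.0289). This call was made in 2 of the 6 fits without 1 mouse, and was lost without WT mouse 1 or 2 or K146Q mouse 62 or 83. Without WT mouse 43, Sox4 (-0.56, adjusted p = 0.00422) and Sox13 (-0.73, adjusted p = 0.00281) were called lower as well. Sox3, a close relative of Sox2, was at 0.712, 0.801 and 3.82 CPM for WT mice 1, 2 and 43 and 1.39, 1.68 and 1.66 CPM in K146Q mice, so WT mouse 43 was again the highest library. None of the 7 tested genes of the S100 list, which includes the S100 receptor gene Ager, was called. S100a11 was the highest at 73.6 ± 7.68 CPM (SD, n = 3) in WT and 72.0 ± 1.61 CPM (SD, n = 3) in K146Q mice. Markers of other cells were read beside these genes. The 6 leukocyte genes summed to 40.4 to 45.8 CPM in WT and 65.2 to 100.2 CPM in K146Q mice, with Csf1r, Aif1 and Ptprc called higher. Csf1r and Aif1 were called in each of the 6 fits without 1 mouse, and Ptprc in 3 of them (lost without WT mouse 2 or K146Q mouse 60 or 62). The 6 markers of pituicytes, the glia of the posterior lobe, overlapped, at 99.8 to 123.5 CPM in WT and 104.9 to 118.5 CPM in K146Q mice. Astrocyte sums overlapped too, at 112.5 to 127.4 and 106.6 to 121.0 CPM, and the astrocyte list gave 1 call, Slc1a3, a glutamate transporter, which fell by 0.36 (adjusted p = 0.0404) and was called in 1 of the 6 fits without 1 mouse, the one without WT mouse 43. The part of these cells in the members' values was not tested.

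In the hypothalamus the 5 genes did not differ between genotypes beyond the spread between mice. None was called, and neither was any of the 15761 genes tested, a share of 0.00%. At an unadjusted p under 0.05 there were 645 genes, and edgeR called 0 and DESeq2 9 genes, none of them a member. Sox2 was at 66.8, 65.2 and 66.6 CPM in WT and 69.6, 66.6 and 75.7 CPM in K146Q mice, a difference of 0.091 (standard error 0.0537, adjusted p = 0.998). Sox9 was at 55.2, 50.9 and 49.5 CPM in WT and 53.3, 46.8 and 53.3 CPM in K146Q mice. S100b was at 113, 110 and 96.8 CPM in WT and 114, 106 and 92.6 CPM in K146Q mice. Both pairs of groups covered nearly the same range, and the intervals of the differences ran from -0.17 to 0.13 for Sox9 and from -0.21 to 0.14 for S100b. Aldh1a1 was at 67.2, 73.1 and 63.4 CPM in WT and 68.5, 68.0 and 51.7 CPM in K146Q mice. Aldh1a2 had its lowest level of the 3 tissues here, at 2.92, 3.01 and 2.26 CPM in WT and 4.53, 3.40 and 2.15 CPM in K146Q mice, with an interval from -0.28 to 0.71. The accompanying gene lists gave no call in this tissue. Gfra2, a receptor subunit for neurturin that also marks pituitary stem cells, was at 63.0 ± 2.65 CPM (SD, n = 3) in WT and 61.5 ± 5.31 CPM (SD, n = 3) in K146Q mice, and Rxra at 58.9 ± 3.22 and 55.6 ± 2.03 CPM (SD, n = 3 each).

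In the thyroid, where these genes mark other cells than in the pituitary, 3 of the 5 passed the test. Sox9 and Aldh1a2 were higher and S100b was lower in K146Q mice, where 37.8% of the 15200 genes tested were called, 19.7% higher and 18.1% lower. Sox9 was at 275, 211 and 253 CPM in WT and 356, 413 and 451 CPM in K146Q mice. Every K146Q library lay above the highest WT library, and the rise was 0.72 (standard error 0.133, adjusted p = 0.00471). On totals without the 10 highest genes the rise was 0.63 (adjusted p = 0.00497). Aldh1a2 was at 5.87, 5.76 and 7.40 CPM in WT and 16.8, 13.2 and 14.8 CPM in K146Q mice. Its groups were far apart for their spread, with a rise of 1.17 (standard error 0.151, adjusted p = 0.00103) and a 95% interval from 0.82 to 1.53. S100b was at 29.6, 31.6 and 27.1 CPM in WT and 18.1, 14.5 and 9.44 CPM in K146Q mice, a fall of 1.09 (standard error 0.216, adjusted p = 0.00671). These 3 calls were made in each of the 6 fits that left out 1 mouse and by edgeR and DESeq2. Without the filter on low values S100b was no longer called (adjusted p = 0.0514). Their exact two-sided permutation p was 0.1, the smallest possible. In this tissue 52.3% of all genes tested had groups that did not overlap, with K146Q above WT in 26.6% and below in 25.7%.

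The other members overlapped between genotypes in the thyroid. Aldh1a1 was at 15.6, 19.4 and 25.0 CPM in WT and 23.3, 15.2 and 8.62 CPM in K146Q mice. The K146Q libraries spread widely, and the difference of -0.42 (standard error 0.335, adjusted p = 0.360) had an interval from -1.20 to 0.36. Sox2 was low, at 2.27, 1.14 and 0.662 CPM in WT and 1.34, 0.529 and 0.703 CPM in K146Q mice, from 9 to 36 reads a library. Its difference was -0.40 (standard error 0.366, adjusted p = 0.420).

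**Figure D2:**
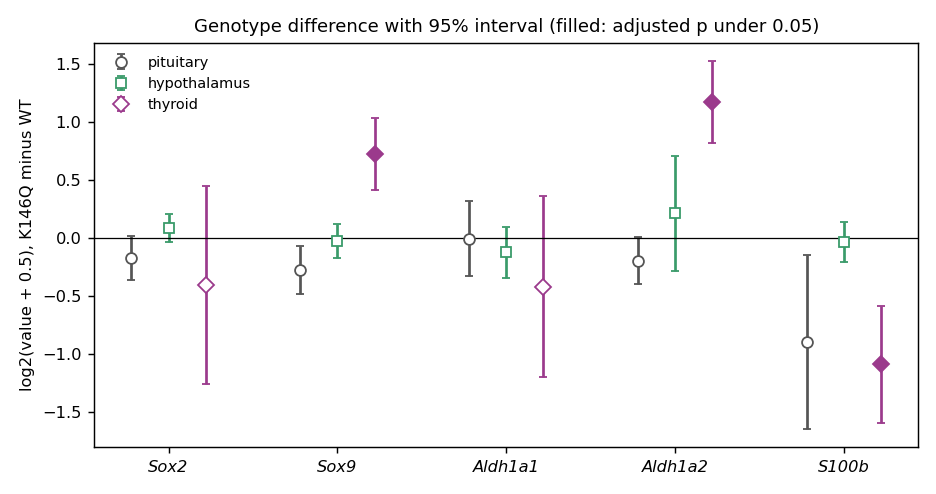
Difference K146Q minus WT on the log2(value + 0.5) scale for each gene and tissue, with the 95% interval from limma (3 mice per genotype); filled symbols passed an adjusted p of 0.05. The filled symbols are those of Sox9 (0.72), Aldh1a2 (1.17) and S100b (-1.09) in the thyroid.

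S100b in the thyroid fell together with genes of Schwann cells and fat cells, which both contain S100B. Of the 3 Schwann genes, Sox10 and Pmp22 were called lower and Prx, at -0.26 (adjusted p = 0.349), was not called. Sox10 was at 3.41, 3.04 and 3.31 CPM in WT and 0.793, 0.882 and 1.35 CPM in K146Q mice, a fall of 1.33 (standard error 0.200, adjusted p = 0.00197). Pmp22, a membrane protein of peripheral myelin, fell by 0.37 (adjusted p = 0.0145), a call lost without WT mouse 1 or K146Q mouse 62. The sum of the 3 genes was 137.4 to 157.9 CPM in WT and 105.1 to 126.1 CPM in K146Q mice. All 5 adipocyte genes were called lower, among them Plin1, which coats lipid droplets, by 2.65 (standard error 0.207, adjusted p = 0.000139) and Fabp4, a fatty acid carrier, by 2.48 (standard error 0.236, adjusted p = 0.000294). Their sum was 556.2 to 745.5 CPM in WT and 97.6 to 186.6 CPM in K146Q mice. Over all genes tested in the thyroid, 18.1% were called lower. S100b was lowest in K146Q mouse 83, whose adipocyte sum was also the lowest and whose Schwann sum was the highest of the K146Q mice. Dip2a, on the strand opposite S100b, fell by 0.33 (adjusted p = 0.0374), from 69.7 ± 5.44 to 55.3 ± 5.53 CPM (SD, n = 3). The part of these in the S100b values was not tested.

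**Figure D3:**
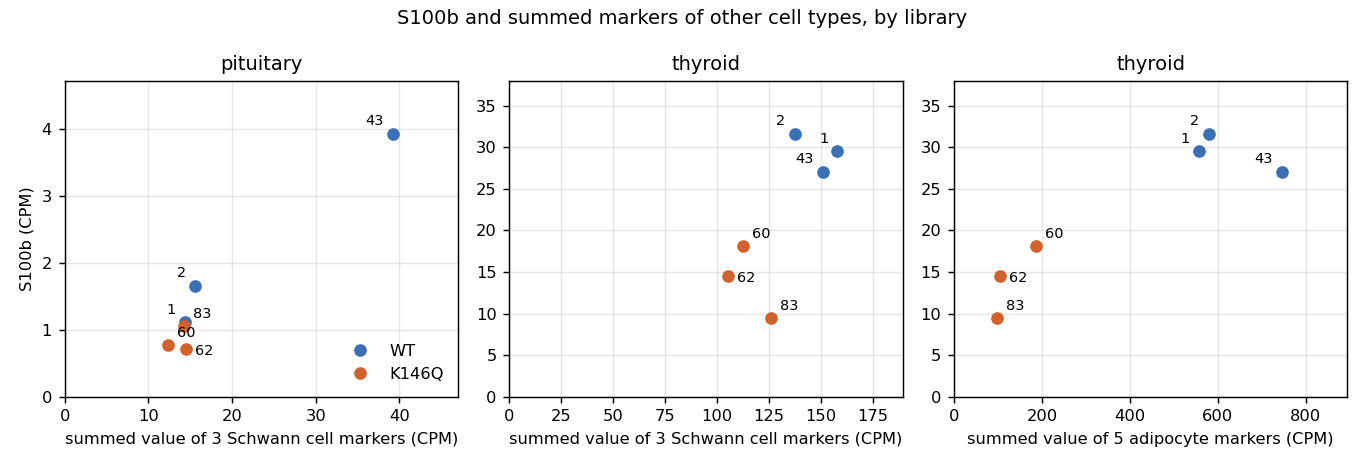
S100b (CPM) against the summed CPM of 3 Schwann cell markers (Pmp22, Prx and Sox10) in pituitary (left) and thyroid (middle) and of 5 adipocyte markers in thyroid (right); each point is a mouse, labelled by its number. In the pituitary WT mouse 43 stands alone at a Schwann sum of 39.2 CPM, and in the thyroid the K146Q mice lie lower on both axes in both plots.

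The rise of Aldh1a2 in the thyroid stood beside changes in both directions among the other retinoid genes. Of 16 tested, 6 were called higher and 5 lower, with a median of 0.067 against -0.025 over all genes. The shares called over all genes were 19.7% higher and 18.1% lower. Stra6, the cell-surface receptor for retinol-loaded RBP4, was at 3.35, 1.14 and 6.01 CPM in WT and 28.8, 22.5 and 27.7 CPM in K146Q mice, a rise of 2.95 (standard error 0.442, adjusted p = 0.00196). Enzymes that make retinal or retinoic acid were split. Aldh1a3, the third retinaldehyde dehydrogenase, was at 63.2, 126 and 61.9 CPM in WT and 35.0, 14.7 and 16.9 CPM in K146Q mice, a fall of 1.91 (standard error 0.374, adjusted p = 0.00620) that ran opposite to Aldh1a2. Adh1, an alcohol dehydrogenase that oxidizes retinol, fell by 1.32 (standard error 0.230, adjusted p = 0.00376). Cyp26b1, which degrades retinoic acid, rose by 2.08 (standard error 0.261, adjusted p = 0.000920), and Rarg, a retinoic acid receptor, rose by 0.56 (standard error 0.0787, adjusted p = 0.00147). Rbp4 and Rxrg, which rose in the pituitary, were lower in the K146Q thyroid, by 1.145 (adjusted p = 0.0147) and 1.14 (adjusted p = 0.0210), from WT means of 4.94 and 3.36 CPM. The thyroid call of Rxrg was made in 2 of the 6 fits without 1 mouse (adjusted p up to 0.0759), and was lost without WT mouse 1 or 2 or K146Q mouse 62 or 83. Of the 11 calls, 8 were made in each of the 6 fits without 1 mouse.

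**Figure D4:**
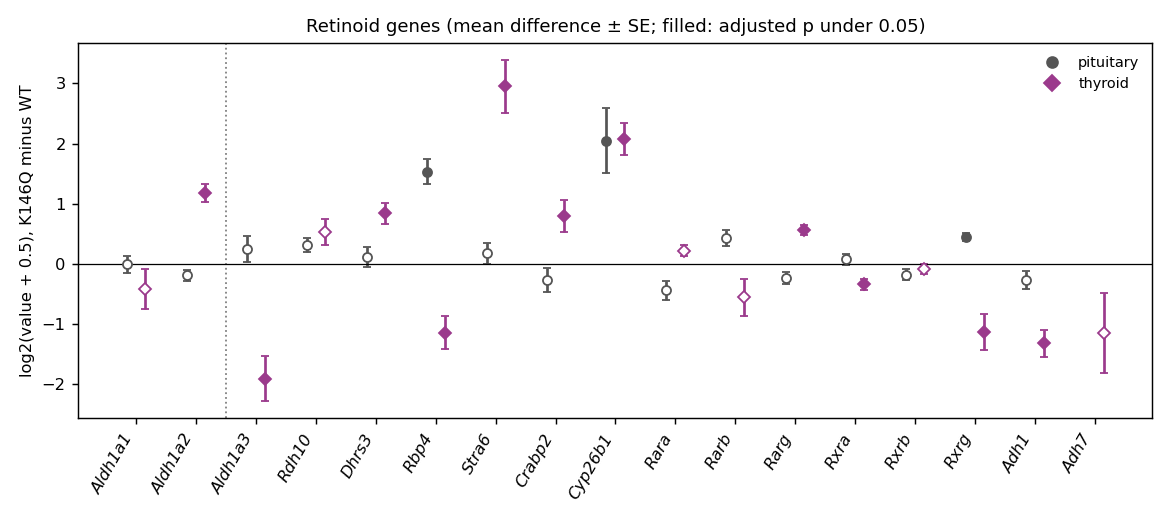
Difference K146Q minus WT on the log2(value + 0.5) scale ± SE (3 mice per genotype) for the 2 members (left of the dotted line) and other retinoid genes tested in pituitary or thyroid; filled symbols passed an adjusted p of 0.05. Stra6 reaches 2.95 in the thyroid, Aldh1a2 and Aldh1a3 lie on opposite sides of 0 there, and Rbp4 and Rxrg lie on opposite sides of 0 in the 2 tissues, the thyroid call of Rxrg being lost in 4 of the 6 fits without 1 mouse.

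Sox9 was not the SOX gene that moved most in the thyroid. Of 12 other SOX genes tested, 6 were called higher and 2 lower, where 19.7% and 18.1% of all genes tested were. Their median difference was 0.52, against -0.025 over all genes. Sox17, a SOXF factor of endoderm and endothelium, was at 13.1, 9.43 and 8.66 CPM in WT and 124, 114 and 111 CPM in K146Q mice, a rise of 3.44 (standard error 0.151, adjusted p = 1.4e-05). Sox7, of the same group, was at 9.22, 7.85 and 7.46 CPM in WT and 22.4, 23.1 and 25.6 CPM in K146Q mice, a rise of 1.48 (standard error 0.123, adjusted p = 0.000163). Sox12 rose by 1.09 (standard error 0.172, adjusted p = 0.00247) here, while it fell in the pituitary. Sox10 and Sox13 were the 2 called lower. Of these 8 calls 5 were made without K146Q mouse 62. The 6 endothelial genes summed to 961.9 to 1044 CPM in WT and 1273 to 1317 CPM in K146Q mice, with Cdh5 higher by 0.71 (adjusted p = 0.000874) and Plvap by 0.54 (adjusted p = 0.00369). For Sox9, cartilage genes were read, since the thyroid lies on the larynx and trachea. The cartilage sum overlapped, at 10.8 to 14.9 CPM in WT and 11.2 to 14.3 CPM in K146Q mice. Of its 3 tested genes Col9a1, a collagen of cartilage, was called higher, by 0.75 (adjusted p = 0.0207), a call made in 2 of the 6 fits without 1 mouse and lost without WT mouse 1 or 2 or K146Q mouse 62 or 83. The sum of 5 airway epithelial genes overlapped as well, at 99.3 to 620.9 CPM in WT and 96.3 to 328.9 CPM in K146Q mice. Of the 4 airway genes tested, 1 was called lower, Trp63. It was called in each of the 6 fits without 1 mouse, with differences from -0.88 to -0.80. The part of these cells in the Sox9 values was not tested.

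**Figure D5:**
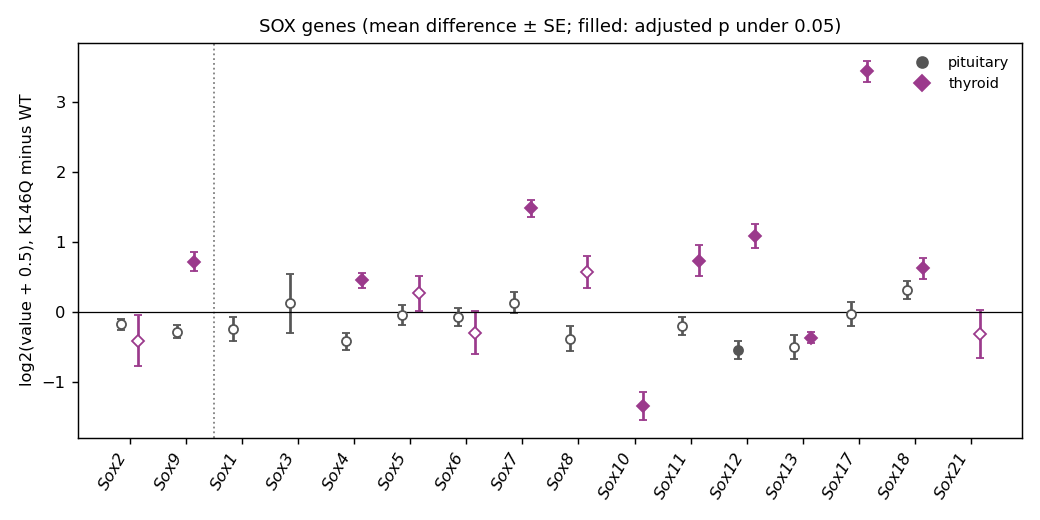
Difference K146Q minus WT on the log2(value + 0.5) scale ± SE (3 mice per genotype) for Sox2 and Sox9 (left of the dotted line) and the other SOX genes tested in pituitary or thyroid; filled symbols passed an adjusted p of 0.05. Sox17 stands highest at 3.44 in the thyroid, and Sox12 lies below 0 in the pituitary and above 0 in the thyroid.

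Of 19 other genes named for pituitary stem cells that were tested in the thyroid, 9 were called higher and 1 lower, with a median of 0.21 against -0.025 over all genes, of which 37.8% were called and 19.7% were higher. Markers of other cells moved with them. The 6 leukocyte genes summed to 78.5 to 102.8 CPM in WT and 189.8 to 201.8 CPM in K146Q mice, with 4 of 5 tested called higher. The 5 fibroblast genes summed to 718.7 to 845.5 CPM in WT and 1353 to 1569 CPM in K146Q mice, with the collagen genes Col1a1 and Col1a2 called higher and Dcn and Pdgfra lower. Their part in these values was not tested. Anxa1 was at 325, 186 and 296 CPM in WT and 1007, 784 and 1082 CPM in K146Q mice, a rise of 1.86 (standard error 0.225, adjusted p = 0.000795). Lcn2, a secreted lipocalin, rose by 3.56 (standard error 0.546, adjusted p = 0.00216), and its K146Q values spread from 17.8 to 66.1 CPM. Nes, an intermediate filament of progenitor cells and new vessels, rose by 0.83 (standard error 0.130, adjusted p = 0.00236). Wif1, a secreted Wnt inhibitor, had 3, 0 and 0 reads in WT and 40, 34 and 29 reads in K146Q mice. Gfra3, a receptor subunit of sensory nerves and Schwann cells, was at 3.92, 4.49 and 3.13 CPM in WT and 0.595, 0.411 and 0.586 CPM in K146Q mice, a fall of 2.07 (standard error 0.201, adjusted p = 0.000317). Signalling genes were called higher in 8 of 15 cases and lower in 2, with a median of 0.44. The Notch targets Hey1 and Hes1 rose by 1.27 (standard error 0.160, adjusted p = 0.000941) and 1.003 (standard error 0.148, adjusted p = 0.00181), and the Notch ligand gene Jag1 by 1.16 (standard error 0.211, adjusted p = 0.00450). Ctgf, a target of YAP and TAZ, was at 749.7, 312 and 1124 CPM in WT and 3700, 4278 and 3385 CPM in K146Q mice. Lgr4, a receptor that amplifies Wnt signals, fell by 0.43 (standard error 0.0691, adjusted p = 0.00270).

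Genes of the S100 list moved in both directions in the thyroid. Of the 10 tested, Ager included, 5 were called higher and 1 lower. The shares over all genes tested were 19.7% higher and 18.1% lower. Of the 6 calls on the list, 4 were made in each of the 6 fits without 1 mouse. S100a11 rose by 0.75 (standard error 0.129, adjusted p = 0.00351), from 445.8 ± 14.3 to 756.8 ± 109.6 CPM (SD, n = 3). Ager, a receptor for several S100 proteins, was at 418, 467 and 318 CPM in WT and 914, 931 and 728 CPM in K146Q mice, a rise of 1.11 (standard error 0.171, adjusted p = 0.00227). S100g, the calcium carrier calbindin-D9k, had 2 reads in each WT library and 201, 110 and 103 reads in the K146Q libraries. S100a1, another S100 gene, was at 233.7 ± 31.7 CPM (SD, n = 3) in WT and 155.2 ± 30.2 CPM (SD, n = 3) in K146Q mice, a fall of 0.60 (standard error 0.159, adjusted p = 0.0214) that was not called without WT mouse 43 or K146Q mouse 62.

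The genotype effects were then compared between tissues in 1 limma fit of the 18 libraries over 17066 genes. For Sox9 the effect in the pituitary minus that in the thyroid was -1.0 (standard error 0.135, adjusted p = 2.81e-05), and for Aldh1a2 it was -1.37 (standard error 0.256, adjusted p = 5.64e-04), where 33.9% of all genes were called for this difference. The thyroid effect also exceeded the hypothalamus effect for Sox9 by 0.75 (adjusted p = 5.03e-04) and for Aldh1a2 by 0.96 (adjusted p = 0.00887, not called without WT mouse 1 or 2), with 31.0% of genes called. For S100b the thyroid minus hypothalamus difference was -1.05 (standard error 0.383, adjusted p = 0.0460), and with mouse as a replicate block it was no longer called (adjusted p = 0.0572). It was called in 1 of the 6 fits without 1 mouse. The S100b effects in pituitary and thyroid, -0.89 and -1.09, differed by 0.19 with an adjusted p of 0.740. Between pituitary and hypothalamus none of the 5 was called (3.26% of genes were), with Sox9 at -0.25 (adjusted p = 0.415) and S100b at -0.86 (adjusted p = 0.298). No difference was called for Sox2 or Aldh1a1 in any pair of tissues.

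Across the WT tissues, Aldh1a2 was the member with its highest level in the pituitary, and S100b had its lowest there. In these contrasts of WT levels most genes differed, 73.2% between pituitary and hypothalamus, 75.9% between pituitary and thyroid and 82.2% between thyroid and hypothalamus. Aldh1a2 was higher in the pituitary than in the thyroid by 3.34 on the log2 scale (adjusted p = 1.99e-11) and higher in the thyroid than in the hypothalamus by 1.08 (adjusted p = 2.86e-05). S100b was lower in the pituitary than in the hypothalamus by 5.42 (adjusted p = 7.38e-12), with the thyroid between them. Sox2 was highest in the hypothalamus, with the pituitary lower by 0.70 (standard error 0.231, adjusted p = 0.0117) and the thyroid far lower. That standard error also takes in the spread of the low thyroid values of Sox2. Sox9 was highest in the thyroid, followed by the hypothalamus, lower by 2.23 (adjusted p = 3.73e-13), and the pituitary, lower by a further 1.31 (adjusted p = 1.28e-09). Aldh1a1 was highest in the hypothalamus, while its pituitary and thyroid levels did not differ beyond their spread (-0.44, 95% interval from -0.97 to 0.090, adjusted p = 0.121). Per kilobase of exon, the WT pituitary held Aldh1a2 at 30.3 ± 2.77 CPM per kb (SD, n = 3), Sox2 at 19.7 ± 0.388, Sox9 at 4.99 ± 0.205, Aldh1a1 at 2.94 ± 0.526 and S100b at 1.51 ± 1.01. S100b, a protein by which folliculostellate cells are often recognized, was thus the lowest of the 5 as a transcript here, at a level that WT mouse 43 alone raised to 2.65 CPM per kb from 0.750 and 1.12. Sox2ot, which surrounds Sox2, had a tissue order like that of Sox2, at 47.1 ± 1.70 CPM in the WT hypothalamus, 5.37 ± 1.05 CPM in the pituitary and 0.893 ± 0.0961 CPM in the thyroid (SD, n = 3 each).

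The genes whose values most resembled each member over the 18 libraries were ranked among 15439 genes with a mean of at least 1 CPM. These libraries fall into 3 tissues, so the likeness mainly reflects tissue levels. For S100b they were Dbndd2, Plekhm2 and 5031439G07Rik, with Pearson r of 0.989, 0.988 and 0.985. For Sox2 they included Sarm1, with r of 0.996, and for Sox9 they were Emp2, Frmd8 and Cdc42se2, with r from 0.991 to 0.994. Aldh1a2 was most like Fgd2, Traf3ip2 and Alox12e, with r from 0.985 to 0.986, and Aldh1a1 most like Coro6, Ndrg2 and Sirt2, with r from 0.9711 to 0.9751. Over the 12 libraries of pituitary and hypothalamus the gene most like S100b was Sox10, with r of 0.999. This likeness too mainly reflects tissue levels, and the first matches of the other members had r from 0.994 to 0.998.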

How the data were processed

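Per the labels, samples were grouped by tissue and genotype, and mouse numbers recur across the 3 tissues but not across genotypes. The authors deposited, for each tissue, a normalized signal per gene and library, in CPM of an effective library size, beside their own log fold changes, average levels, p-values and FDR, which were not used. The submitters' processing notes name bcl2fastq 2.17, Bowtie2 2.1.0, RSEM 1.2.15 and mm10. The annotation and whether strand was kept are not given in the sources used here. Dividing by the worth of 1 read gave whole reads for 100% of the values (tolerance 0.01). Of the gene symbols, 27 had turned into dates in the pituitary and hypothalamus files.

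Each tissue was fitted alone with limma 3.58.1 under R 4.3.3, keeping genes that reached 0.5 CPM in 3 or more of its 6 libraries. The fit used log2(value + 0.5) and a trend of variance on mean, Benjamini-Hochberg adjusted p-values and a limit of 0.05. Tissue effects used 1 fit of the 18 libraries with 6 group means. Exact permutation tests took 3 mice against 3. edgeR 4.0.16 (TMM) and DESeq2 1.42.0 on the recovered reads were alternatives, calling 1530 and 1808 genes in the pituitary and 5640 and 5760 in the thyroid. Other scalings, filters and pseudocounts were tried. Scripts were tested on simulated data.

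The 5 members, the gene lists and the tests were chosen with earlier results of these data known. Of each list, the text names up to 4 called genes with the lowest adjusted p in a tissue (up to 6 for stem cell, retinoid and SOX genes), or the 2 highest where none was called, plus markers a result turns on and the 3 genes most like each member. Sox3, Sox4, Sox13, Rara, Rarb, Jag1, Ctgf, S100a1, and Rbp4 and Rxrg in the thyroid were named after their values were seen. The 14 lists of other cell types, some of them described in the report, had 66, 65 and 70 tested entries in pituitary, hypothalamus and thyroid, of which 11, 0 and 19 were called higher and 5, 0 and 18 lower. Some genes are not reported here.

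The labels repeat the mouse numbers in the 3 tissues and the design text speaks of 3 mice of each genotype, so a number was taken to mark 1 animal, which no source states outright. The correlation of a mouse's deviations from the group means between tissues ran from -0.030 to 0.174 over 18 pairs, and 3 were over 0.1.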

Additional observations from a re-analysis of the deposited data

Results flagged for a closer look

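Effects of genotype were compared between tissues by a test of the difference itself, which called 33.9% of all genes between pituitary and thyroid and 31.0% between thyroid and hypothalamus. Sox9 differed by -1.0 between pituitary and thyroid and by 0.745 between thyroid and hypothalamus (adjusted p = 2.81e-05 and 5.03e-04). It was lower by 0.28 in the pituitary, where this was not called, and higher by 0.72 in the thyroid. Aldh1a2 differed by -1.37 between pituitary and thyroid and by 0.958 between thyroid and hypothalamus (adjusted p = 5.64e-04 and 0.00887), the latter call being lost without WT mouse 1 or 2. S100b differed by -1.05 between thyroid and hypothalamus (adjusted p = 0.0460), a call lost with mouse as a replicate block (adjusted p = 0.0572) and made in 1 of the 6 fits without 1 mouse.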

How the results depend on the processing

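Each member's difference was refitted under every alternative, and most kept their direction and their side of the threshold. Of 238 such refits within tissues, 228 did, 8 changed sign, 1 lost and 1 gained a call. Without a filter on low values, 291 genes were called in the pituitary (1537 with it) and 12 in the hypothalamus, and S100b in the thyroid (-1.09) had an adjusted p of 0.0514. DESeq2 called 9 genes in the hypothalamus and 1 member in the pituitary, S100b (-1.39). Without 1 mouse, the genes called ranged from 655 (without K146Q mouse 60) to 1355 in the pituitary, with 790 without K146Q mouse 62, from 0 to 6 in the hypothalamus and from 3763 (without K146Q mouse 62) to 5243 in the thyroid. Changes of sign came in such fits. The range was -0.129 to 0.121 for Aldh1a1 in the pituitary, -0.0542 to 0.0399, -0.191 to 0.00967 and -0.0996 to 0.0491 for Sox9, Aldh1a1 and S100b in the hypothalamus, -0.0011 to 0.292 for Aldh1a1 between pituitary and hypothalamus effects, and -0.105 to 0.510 (Sox2) and -0.165 to 0.666 (S100b) between pituitary and thyroid effects. With a pseudocount of 0.1 the last was -0.0192.

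The S100b difference between thyroid and hypothalamus effects lost its call with a pseudocount of 0.1 (-1.08, adjusted p = 0.0755), without the filter (-1.05, 0.106), without the trend (-1.05, 0.0609), with mouse as a replicate block (-1.05, 0.0572) and in 5 of 6 fits without 1 mouse (-1.19 to -0.885). The block ended no other call. Aldh1a2 in the same contrast ranged from 0.713 to 1.17 without 1 mouse and lost its call without WT mouse 1 or 2. The WT level contrasts ranged from -0.723 to -0.681 for Sox2 (pituitary minus hypothalamus), with no call without WT mouse 2, and from -0.476 to -0.394 for Aldh1a1 (pituitary minus thyroid), called without K146Q mouse 83. Totals without the 10 highest genes left the members' calls as they were, gave 837 higher and 879 lower genes in the pituitary (991 and 546 as deposited) and 2496 and 3613 in the thyroid (2992 and 2747), and moved the thyroid median to -0.117. Of the list calls named in the pituitary, those of Rbp4, Rxrg, Csf1r and Aif1 held in every fit without 1 mouse, and the others did not. At least 1 CPM in every library gave no value for S100b in the pituitary or Sox2 in the thyroid. None of the 3 genes most like a member over 18 libraries was among the 3 over 12. The depth limits S100b in the pituitary and Sox2 in the thyroid most. The causes were not tested.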
